A study of Mus musculus with 9 samples.

Results

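The zona pellucida genes Zp1, Zp2 and Zp3 encode the proteins of the mouse egg coat, and their mRNAs were followed on polysomes through the meiotic maturation of mouse oocytes. The members were the 3 listed genes with every probe set that carries only their symbol. Each gene had 1 such probe set (1450306_at for Zp1, 1449016_at for Zp2 and 1419007_at for Zp3), so they made up 3 of 18193 genes and 3 of 45037 probe sets other than controls. All 3 were measured on all 9 arrays, and no filter on low signal was applied. Mice received hCG, an ovulatory gonadotropin, 48 h after PMSG, which stimulates follicle growth. Oocytes were taken at 0 h of hCG as germinal vesicle (GV) oocytes, at 4 h as metaphase I (MI) oocytes and at 14 h as metaphase II (MII) oocytes, with 3 Affymetrix mouse whole-genome arrays per stage. The labels used here state no strain, genotype or age of the mice, and no number of oocytes per sample. The description field of the MI samples reads pGVB, an abbreviation it does not explain. The samples are called biological replicates from independent sets, but separate animals are not stated, so p-values here rest on sample-to-sample spread that could be technical.

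The zona pellucida is an extracellular coat of glycoprotein filaments that the oocyte secretes during its growth. ZP2 and ZP3 assemble the filaments and ZP1 cross-links them. Sperm bind the coat at fertilisation, and cleavage of ZP2 by ovastacin, a protease of the cortical granules, then ends sperm binding. Transcription of the 3 genes in growing oocytes depends on Figla, a basic helix-loop-helix factor that acts through E-boxes (CANNTG), and fully grown oocytes have largely stopped transcribing. Oocytes at the stages measured here therefore rely on mRNA made earlier, part of which is stored and part of which is bound to ribosomes.

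The upstream region of Zp3 is shown because the signal of Figla is reported beside that of the Zp genes below. Those of Zp1 and Zp2 were absent from the sequence set used here, so they were not searched. The sequence is from RefSeq (GRCm38.p6, chr5:135979855-135980104, plus strand) and covers the 250 bases before the start of the gene. Capitals mark the E-box CACGTG and both matches to TATAA, searched on both strands.

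Zp3: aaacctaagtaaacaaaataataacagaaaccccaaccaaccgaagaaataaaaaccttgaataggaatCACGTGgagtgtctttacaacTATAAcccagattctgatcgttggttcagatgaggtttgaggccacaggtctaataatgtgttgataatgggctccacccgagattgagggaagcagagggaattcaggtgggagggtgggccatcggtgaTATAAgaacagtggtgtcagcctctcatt

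The match to CACGTG began 181 bases before the start, and the matches to TATAA began 160 and 29 bases before it. The looser pattern CANNTG, which includes CACGTG, had 3 matches, at 181, 134 and 55 bases. Of 32851 windows of 250 bases before gene starts, 6.02% held CACGTG, 66.2% held CANNTG and 22.8% held TATAA. A match to letters is not evidence that a factor binds there.

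Array medians lay between 12.39 and 13.22 in linear intensity and 95th percentiles between 1126 and 1458, while the mean log2 signal of the hybridisation controls lay between 11.94 on GV 1 and 12.81 on MI 3. Every Zp signal was at least 65.6 times the median of its array. Of all Zp signals, that of Zp3 on MI 3 came closest to the brightest probe set of its array other than controls, at 83.3%. MI 3 had the lowest such maximum (9171, against 18903 on GV 1). The summed intensity of 13 oocyte markers, of which Zp1, Zp2 and Zp3 are 3, was 74436 to 80524 on GV, 67120 to 74071 on MI and 42432 to 48468 on MII arrays. In MII against GV, 6 of these markers fell, the 3 Zp genes among them, and 5 did not pass. The other 2, Oosp1 and Dazl, rose (Dazl log2 change 1.14, limma adjusted p = 0.0132). The sum of 17 measured granulosa, cumulus and theca markers was 955.8 to 1108 on GV, 1066 to 1459 on MI and 708.4 to 1155 on MII arrays, with MI 3 the highest. Members of that sum moved in different directions. Cyp11a1 averaged 531 in GV, 530 in MI and 163 in MII. Nr5a2 averaged 85.2, 129 and 444, and its difference between MII and GV did not pass (limma adjusted p = 0.145). Its other probe sets had negative log2 changes in MII against GV (-1.76 to -1.13). Those of -1.76 and -1.49 passed (limma adjusted p = 0.0311 and 0.0322 over every probe set). Tnfaip6 averaged 3.77, 66.4 and 9.65 and fell in MII against MI (limma adjusted p = 0.0176). At the brightest probe sets no other of the 17 passed in any comparison. For 7 blood, immune and endothelial markers the sum was 170.5 to 353.3 on GV, 119.1 to 615.4 on MI and 617.7 to 885.8 on MII arrays. Pecam1, an endothelial adhesion molecule, made up most of the MII sum, with a mean of 660.6 in MII and 190.4 in GV. Its difference between MII and GV did not pass (limma adjusted p = 0.153). None of the other 6 averaged above 19.0 in MII. The sum of 4 oviduct markers was at most 35.7 on 8 of the 9 arrays and 188.1 on MI 3. The part of other cells in the results was not tested.

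Zp1, Zp2 and Zp3 gave strong polysomal signal in GV oocytes and far less in MII oocytes. In MII oocytes their mean intensity was 28.7% (Zp1), 22.1% (Zp2) and 22.8% (Zp3) of the GV mean, and in MI oocytes it was 78.8%, 77.8% and 89.9% in the same order. The fall from MI to MII and the fall from GV to MII passed the test for all 3 genes, and the smaller difference between MI and GV passed for none. In bulk samples such as these, fewer oocytes that carry an mRNA and less mRNA per oocyte cannot be told apart, and nor can less mRNA and fewer ribosomes on it, since total RNA was not analysed here.

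Zp1, the cross-linking protein of the coat, had intensities of 5072, 5886 and 5498 on the 3 GV arrays, 3364, 4629 and 4971 on the MI arrays and 2077, 1343 and 1303 on the MII arrays. Its means were 5485 ± 407 in GV, 4321 ± 847 in MI and 1574 ± 436 in MII (SD, n = 3 each). Neither neighbouring pair of stages overlapped, and MII 1 was the highest MII array. Against GV, Zp1 fell by 1.82 on the log2 scale in MII (SE 0.26, 95% interval -2.42 to -1.23), a 3.53-fold fall (limma adjusted p = 0.00355).

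Zp2, a filament subunit and the target of ovastacin, had intensities of 6717, 8211 and 8120 in GV, 6224, 6294 and 5411 in MI and 2166, 2055 and 868 in MII. The means were 7683 ± 838 in GV, 5976 ± 491 in MI and 1696 ± 720 in MII (SD, n = 3 each). Stages did not overlap, and MII 3 lay well below the other 2 MII arrays. Against GV, Zp2 fell by 2.27 in MII (SE 0.35, 95% interval -3.08 to -1.47), a 4.83-fold fall (limma adjusted p = 0.005).

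Zp3, the other filament subunit, had intensities of 7942, 8616 and 9525 in GV, 7920, 7884 and 7635 in MI and 2045, 2783 and 1118 in MII. Its means were 8694 ± 794 in GV, 7813 ± 155 in MI and 1982 ± 834 in MII (SD, n = 3 each). MI arrays were close together, with a coefficient of variation of 1.98%, whereas MII arrays spread by 42.1%, with MII 3 again the lowest. The highest MI array lay just below the lowest GV array. Against GV, Zp3 fell by 2.22 in MII (SE 0.32, 95% interval -2.95 to -1.48), a 4.64-fold fall (limma adjusted p = 0.00389).

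**Figure D1:**
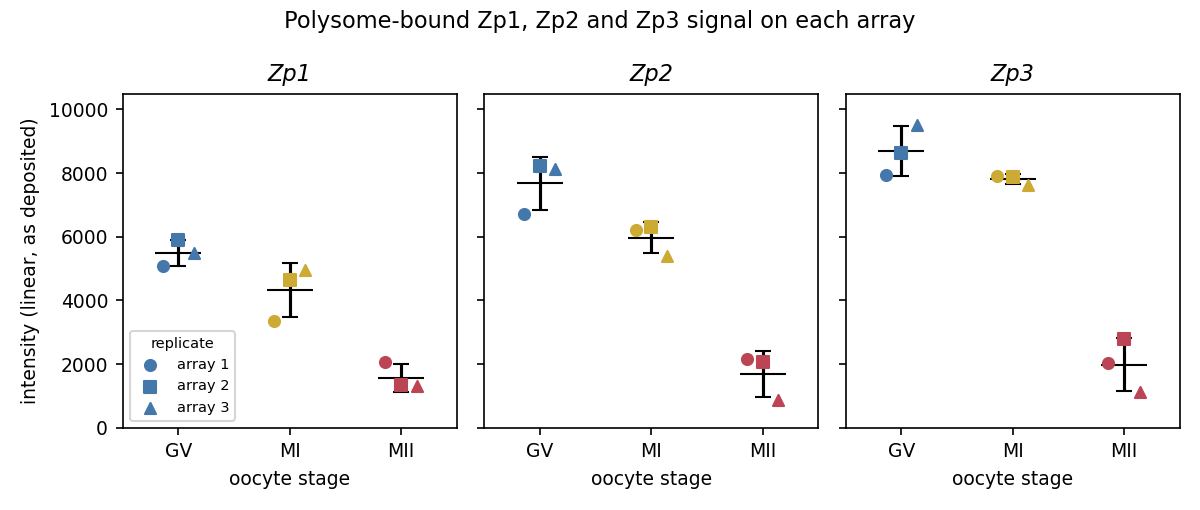
Linear intensity of Zp1, Zp2 and Zp3 (vertical axis) on each of 3 arrays at the GV, MI and MII stage (horizontal axis). Points are arrays, with the marker giving the replicate number, and bars are the mean and SD of 3 arrays. The highest MII array, at 2783 for Zp3, lies below every MI and GV array of all 3 genes.

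Changes are given on the scale of log2(intensity + 16), with an adjusted p (Benjamini-Hochberg, all 18193 genes) under 0.05 as the threshold for passing. The comparison of MI with GV addresses the first 4 h after hCG. Zp1 had a log2 difference of -0.36 (95% interval -0.96 to 0.23, limma adjusted p = 0.876), Zp2 one of -0.36 (-1.17 to 0.45, limma adjusted p = 0.913) and Zp3 one of -0.15 (-0.89 to 0.59, limma adjusted p = 0.98). All 3 MI arrays lay below all 3 GV arrays for each of the 3 genes, as they did for 6% of all genes and 9.19% of the 1915 genes with a mean intensity of at least 1000, a limit chosen after seeing the data. These are called bright genes below. No gene of the table rose or fell at this step by limma's test (0% called each way). An unadjusted p under 0.05 was reached by 1308 of 18193 genes, a threshold that many genes pass when none has changed. A difference at this step was thus not detectable, and the intervals leave room for a fall of up to 1.94-fold for Zp1, 2.24-fold for Zp2 and 1.85-fold for Zp3.

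The comparison of MII with MI covers the interval in which oocytes complete the first meiotic division. Zp1 fell by 1.46 on the log2 scale (SE 0.26, limma adjusted p = 0.0134), a 2.75-fold fall. Zp2 fell by 1.91 (SE 0.35, limma adjusted p = 0.015), or 3.77-fold, and Zp3 by 2.07 (SE 0.32, limma adjusted p = 0.00796), or 4.18-fold. All 3 genes fell, against 6.78% of all genes tested and 26.7% of the bright genes, while 2.54% of all genes and 6.06% of the bright ones rose. Every MII array lay below every MI array for the 3 genes, as for 15.3% of all and 39.1% of the bright genes. Without MI 2 the calls of Zp1 (limma adjusted p = 0.0513) and Zp2 (limma adjusted p = 0.0547) were lost. They were also lost on arrays centred on hybridisation controls, and that of Zp1 with a pseudocount of 1, with adjusted p from 0.0532 to 0.0752.

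Over the whole span, all 3 genes fell in MII against GV, while 8.8% of all genes fell and 5.46% rose. Every MII array lay below every GV array for the 3 genes, and for 17.3% of all and 41.8% of the bright genes. These calls held in each of 19 alternative fits, with adjusted p of at most 0.0247 for Zp1, 0.0205 for Zp2 and 0.0168 for Zp3. Of the 1915 bright genes, 31.7% fell in MII against GV and 16.7% rose. The median log2 change was -2.22 over the Zp genes, -0.24 over these bright genes and -0.02 over all genes. Among the bright genes, 25.5% had a lower value than Zp1, 19.5% a lower value than Zp2 and 20% a lower value than Zp3.

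**Figure D2:**
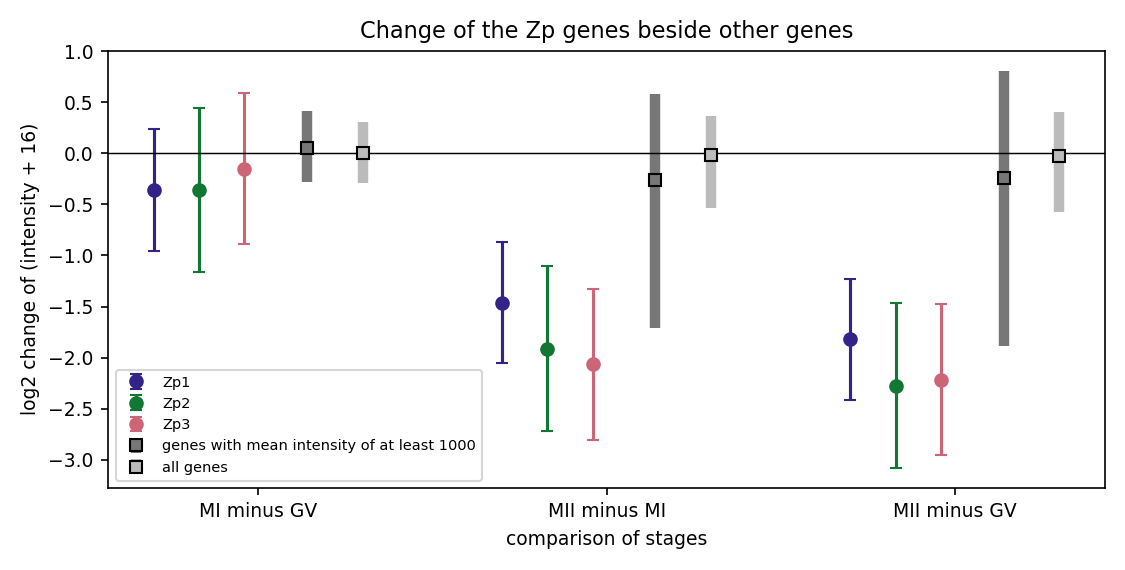
Change in log2(intensity + 16) between stages (vertical axis) for Zp1, Zp2 and Zp3, with 95% intervals of the limma fit, in the 3 comparisons (horizontal axis). Squares and thick bars are the median and the quartiles of the 1915 genes with a mean intensity of at least 1000 and of all 18193 genes, and the Zp values lie below both medians in each comparison.

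The fitted fall was larger at the later step than at the earlier one for each gene, but this difference did not pass the test. The steps are unequal in length, running from 0 to 4 h and from 4 to 14 h of hCG. The change from MI to MII minus that from GV to MI was -1.10 for Zp1 (limma adjusted p = 0.398), -1.55 for Zp2 (limma adjusted p = 0.377) and -1.91 for Zp3 (limma adjusted p = 0.215). By the same test 0.198% of all genes were called in this direction and 0.011% in the other. Over all stages together, limma's F test passed for Zp1 (adjusted p = 0.00736), Zp2 (adjusted p = 0.00979) and Zp3 (adjusted p = 0.00653), as for 11.6% of all genes.

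The 3 genes were then compared with one another, since a difference taken within an array is little affected by its scaling. In MII against GV, the log2 change of Zp1 minus that of Zp2 was 0.45 (95% interval -0.37 to 1.27), and that of Zp1 minus Zp3 was 0.39 (95% interval -0.48 to 1.27). The change of Zp2 minus that of Zp3 was -0.06 (95% interval -0.41 to 0.30). None of the 3 pairs passed an exact permutation test over the 3 stages (every arrangement of the arrays, one-way F statistic, unadjusted p = 0.421, 0.286 and 0.382, and adjusted p = 0.421 for each pair). The smallest p this test can give is 0.00357. The interval of Zp2 against Zp3 was the narrowest, and that of Zp1 against either gene allows a difference of 1.27.

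**Figure D3:**
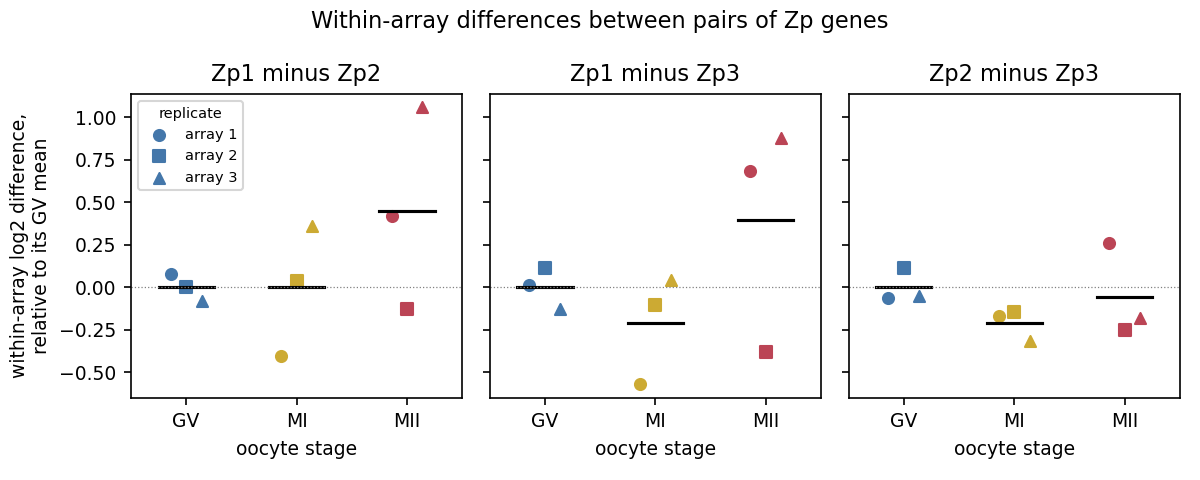
Within-array difference in log2(intensity + 16) between each pair of Zp genes, relative to its mean in GV (vertical axis), on each array at the 3 stages (horizontal axis). Markers give the replicate number and lines are stage means. The MII arrays spread on both sides of 0 in every pair.

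The pattern over the 9 arrays was set against that of 9096 other genes at or above the median signal, as a description. Zp2 and Zp3 followed each other closely, with a Pearson correlation of 0.987, and Zp1 was less close to Zp2 (0.942) and to Zp3 (0.923). Zp3 stood 11th in likeness to Zp2 and Zp2 stood 18th in likeness to Zp3, whereas Zp2 and Zp3 stood 165th and 311th in likeness to Zp1. The 9 arrays fall into stages that differ in many genes, and all points share their arrays, so high values are common. The genes most like Zp1 were Ddost, a subunit of the oligosaccharyltransferase (0.984), Rfc2, a replication factor C subunit (0.981), Bgn, the proteoglycan biglycan (0.981), Rufy1, an endosomal protein (0.978), and Cyth2, a guanine nucleotide exchange factor (0.978). For Zp2 they were Noc4l, a ribosome biogenesis factor (0.995), Pigk, a subunit of the GPI transamidase (0.994), Cenps, a kinetochore protein (0.991), Nudc (0.989) and Tacc3, a spindle protein (0.989). For Zp3 they were Uchl1, a ubiquitin hydrolase abundant in oocytes (0.999), Mdh2, mitochondrial malate dehydrogenase (0.994), Gatd3a (0.994), Ik (0.994) and Cox4i1, a cytochrome c oxidase subunit (0.993). A like pattern did not mean a like size of change. Uchl1 averaged 2027 in MII and 7710 in GV, or 26.3%, close to the share of Zp3, while Cox4i1 averaged 140 in MII and 2544 in GV, or 5.5%.

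Of 9 listed and measured genes that regulate transcription of Zp or other oocyte genes, 2 fell, 1 rose and 6 did not pass in MII against GV (median -0.25). Over all genes 8.8% fell and 5.46% rose, and over bright genes 31.7% and 16.7%. Lhx8, a homeobox factor among the 6, averaged 1258 ± 129 in MII and 3396 ± 625 in GV. Its log2 change of -1.41 lay at the threshold (limma adjusted p = 0.05 after rounding). Figla had intensities of 15.5, 24.5 and 20.3 on the MII arrays, against 1489, 820 and 1178 on the GV arrays. All MII arrays were thus close to the array medians. Figla fell (limma adjusted p = 0.000423), but the size of a fall to so low a signal depends on the pseudocount, with a log2 change of -5.00 at 16 and -5.77 at 1. Nobox, a homeobox factor of early oocytes, averaged 634 ± 578 in MII and 3948 ± 639 in GV and fell by 2.97 (limma adjusted p = 0.0102). Sohlh2, a helix-loop-helix factor of early oocytes, averaged 473 ± 301 in MII and 53.1 ± 24.3 in GV and rose by 2.71 (limma adjusted p = 0.0181), a call lost without GV 1 (limma adjusted p = 0.0595) or MII 1 (limma adjusted p = 0.0516).

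Of 29 measured genes that translocate, fold, cleave or glycosylate secreted proteins, 5 fell, 2 rose and 22 did not pass in MII against GV (median -0.41). Over all genes 8.8% fell and 5.46% rose, and over bright genes 31.7% and 16.7%. At second bright probe sets, Spcs2, a signal peptidase subunit, rose by 2.09 (limma adjusted p = 0.00204) and Hsp90b1, a chaperone, fell (-1.97, limma adjusted p = 0.00278), with p adjusted over every probe set, though neither passed at its brightest one. Hspa5, the main chaperone of the endoplasmic reticulum, averaged 516 ± 223 in MII and 2705 ± 478 in GV (log2 change -2.43, limma adjusted p = 0.00372), and its second bright probe set moved by -2.36. Sec11c, a signal peptidase subunit, averaged 153 ± 107 in MII and 1757 ± 419 in GV (log2 change -3.69, limma adjusted p = 0.00791). Calr, the chaperone calreticulin, averaged 777 ± 499 in MII and 3675 ± 285 in GV (log2 change -2.50, limma adjusted p = 0.0161; other probe sets -3.97 and -2.84), a call lost without GV 1 (limma adjusted p = 0.0503). C1galt1c1, a chaperone of O-glycan synthesis, averaged 543 ± 95.1 in MII and 84.5 ± 34.1 in GV and rose by 2.52 (limma adjusted p = 0.00496). Furin, a proprotein convertase of the secretory pathway, was chosen after its values were seen and did not pass, with 3417 ± 869 in MII and 4567 ± 1138 in GV (limma adjusted p = 0.561). SDs are over 3 arrays.

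Of 17 measured genes of cortical granule content and release, 6 fell, 1 rose and 10 did not pass in MII against GV (median -0.26), beside 31.7% of bright genes and 8.8% of all genes that fell. Myh9, a nonmuscle myosin, did not pass at its brightest probe set and rose at a second one (1.59, limma adjusted p = 0.0216 over every probe set). Myo5b, counted among those that fell, passed at none of its other probe sets (0.53 and -0.77). Vamp3, the gene that rose, passed at none of its other probe sets either (-0.14 to 1.60). Astl encodes ovastacin, and its intensities were 2469, 2480 and 2061 on the MII arrays, against 6858, 6211 and 6582 on the GV arrays. The groups did not overlap, and Astl fell by 1.48 (SE 0.26, limma adjusted p = 0.00852). That call was lost with a pseudocount of 1 (limma adjusted p = 0.0536) and on arrays centred on hybridisation controls (limma adjusted p = 0.0739). Nsf, an ATPase that recycles membrane fusion complexes, fell by 2.03 (1018 ± 71.4 in MII and 4228 ± 475 in GV, limma adjusted p = 0.001), with -0.96 at its second bright probe set, which did not pass. Napa, its adaptor, averaged 22.7 ± 23.3 in MII and 356.8 ± 119 in GV and fell (limma adjusted p = 0.00425), with a log2 change of -3.38 at a pseudocount of 16 and -4.37 at 1. Rab11a, a GTPase of vesicle transport, had -1.65 at its brightest probe set (limma adjusted p = 0.00949) and 3.01 at its other bright one (limma adjusted p = 0.0611 over every probe set), so its direction is not settled. Of the 3 genes of sperm binding and fusion, Izumo1r, the egg receptor for sperm Izumo1, fell by 3.11 (limma adjusted p = 0.000755). Cd9, a tetraspanin needed for fusion, fell too (log2 change -3.87, limma adjusted p = 0.00636). It averaged 64.8 ± 14.6 in MII and 1492 ± 1346 in GV, so its GV arrays differed widely. Cd81 did not pass (limma adjusted p = 0.615).

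Of 10 other measured genes whose proteins carry a ZP domain, 1 fell, 1 rose and 8 did not pass in MII against GV (median -0.11), beside 8.8% of all genes that fell and 5.46% that rose. Cuzd1, Gp2, Oit3, Tecta, Tectb and Umod averaged at most 10.4 at every stage, below the array medians. Not passing, and the median, therefore say little about whether such genes were stable. Umodl1, an uromodulin-like protein, averaged 639 ± 421 in MII and 2040 ± 113 in GV (log2 change -1.93, limma adjusted p = 0.0448). Its call was lost in 12 of 18 alternative fits, without any 1 of 7 of the 9 arrays among them. Tgfbr3, the TGF-beta co-receptor betaglycan, rose by 2.05 (1091 ± 383 in MII and 243 ± 43.5 in GV, limma adjusted p = 0.0065; other probe set 3.17). Of 6 zona-related genes of other tissues none passed. Fetub, known from liver as an inhibitor of ovastacin, was the brightest of these with 533 ± 156 in MII and 1047 ± 398 in GV (log2 change -0.94, limma adjusted p = 0.298). Zp3r, a sperm protein named for ZP3 binding, averaged 17.9 ± 27.9 in MII and 3.63 ± 1.69 in GV. Ovgp1, Acr, Zpbp and Zpbp2 averaged at most 9.93 at every stage, also below the array medians.

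**Figure D4:**
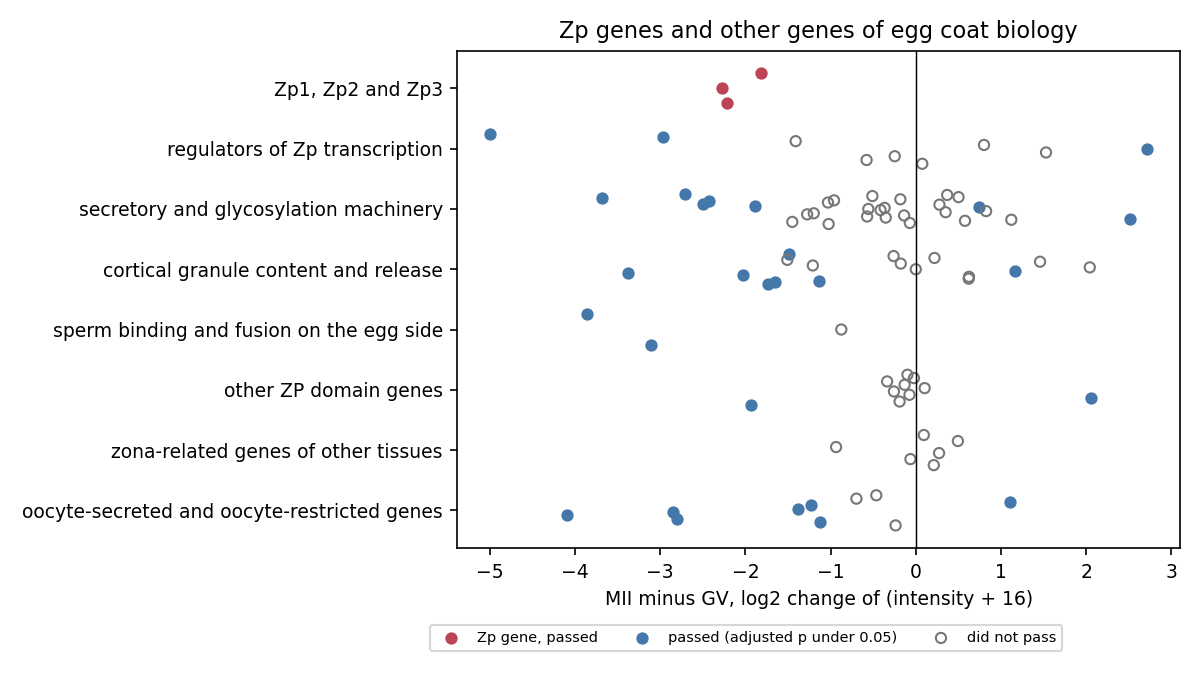
Change in log2(intensity + 16) in MII minus GV (horizontal axis) for the Zp genes and for each measured gene of 7 lists (rows). Filled points passed limma's test at an adjusted p under 0.05 and open points did not. The Zp genes lie between -2.27 and -1.82, and each list except the zona-related genes of other tissues holds genes that passed.

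Of 10 measured oocyte-secreted and oocyte-restricted genes, 6 fell, 1 rose and 3 did not pass in MII against GV (median -1.18). Over bright genes 31.7% fell and 16.7% rose, and over all genes 8.8% and 5.46%. The log2 change was -4.09 for Khdc3, -2.81 for Padi6, -2.85 for Tle6 and -1.38 for Ooep, all genes of the subcortical maternal complex or its surroundings, with limma adjusted p from 0.00134 to 0.00298. The call of Ooep was lost with a pseudocount of 1 (limma adjusted p = 0.0507). The secreted growth factors Gdf9 and Bmp15 did not pass. Gdf9 had 6031, 7095 and 6343 on the MII arrays, against 9077, 9193 and 8546 on the GV arrays (log2 change -0.46, limma adjusted p = 0.179). Bmp15 had 5783, 3030 and 2872 on the MII arrays, against 5856, 6655 and 5528 on the GV arrays (log2 change -0.70, limma adjusted p = 0.178). The MII arrays of Gdf9 lay below its GV arrays, while those of Bmp15 overlapped them. Without MII 1, Bmp15 passed (log2 change -1.02, limma adjusted p = 0.0285). Oosp1, an oocyte-secreted protein, went the other way, with 8072, 8849 and 9069 on the MII arrays, against 4229, 4545 and 3332 on the GV arrays (log2 change 1.11, limma adjusted p = 0.00956). Its call was lost with a pseudocount of 1 (limma adjusted p = 0.11) and on arrays centred on hybridisation controls (limma adjusted p = 0.113).

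Each Zp gene was compared within arrays with 5 of these genes, chosen after their values were seen. The exact permutation test over the 3 stages was used, with adjustment over 15 pairs. It asks whether a difference varied among the stages in any way. Its p-values have no direction and do not test MII against GV alone. In MII against GV the mean log2 changes relative to Gdf9 were -1.36 (Zp1), -1.81 (Zp2) and -1.75 (Zp3). Over the 3 stages these pairs had an exact adjusted p of 0.0341, 0.0268 and 0.0341. Relative to Bmp15 the values were -1.12, -1.58 and -1.52 in the same order of genes (exact adjusted p = 0.0107, 0.0107 and 0.0341). Relative to Oosp1 they were -2.93, -3.38 and -3.32 (exact adjusted p = 0.0107 for each). Relative to Figla the changes were positive (exact adjusted p over the stages = 0.0341, 0.0341 and 0.0446). Their size depends on the pseudocount, since Figla was close to the array medians in MII. The values were 3.17, 2.72 and 2.78 with a pseudocount of 16, and 3.94, 3.48 and 3.54 with 1. Against Astl the 3 differences, -0.34 (95% interval -1.30 to 0.62), -0.79 (-1.62 to 0.05) and -0.73 (-1.55 to 0.09), did not pass (exact adjusted p = 0.679, 0.0804 and 0.0783). Zp3 against Astl passed without MII 2 (-0.98, exact adjusted p = 0.0438) and after quantile normalization (-0.81, exact adjusted p = 0.0495). The calls against Oosp1 held without any 1 array, whereas each of those against Gdf9, Bmp15 and Figla except Zp1 against Bmp15 and Zp2 against Gdf9 was lost without at least 1 array (exact adjusted p up to 0.0848, with 560 arrangements of 8 arrays).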

How the data were processed

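Polysome-bound mRNA of 9 oocyte samples was reverse-transcribed, linearly amplified with a kit made for degraded RNA and hybridised as biotin-labelled cDNA, per the labels' protocols. The authors deposited 1 table with a linear intensity per probe set and array; for summarisation, background correction and scaling, the method is not given in the sources used here. This table has 45101 probe sets, of which 64 controls were left out, and no detection calls. Symbols came from the platform annotation, and gene IDs from a RefSeq table (GRCm38.p6), which held 18032 of 18193 genes. Where a gene had several probe sets, the one with the highest mean log2 signal stood for it. Values were used without further scaling as log2(intensity + 16), with no filter. In limma 3.58.1 (R 4.3.3), lmFit and eBayes were run on 1 model of the 3 stages that took in the 9 arrays, and contrasts were tested two-sided with Benjamini-Hochberg adjustment over 18193 genes. The pseudocount understates changes of dim genes. The number of arrays limits the precision. Intervals for differences between genes use the pooled SD of the stages (6 degrees of freedom).

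The members, lists and tests were chosen with earlier results of these data known. The lists were regulators of Zp transcription, secretory and glycosylation machinery, cortical granule content and release, sperm binding and fusion, other ZP domain genes, zona-related genes of other tissues, oocyte-secreted and oocyte-restricted genes, and markers of oocytes, of granulosa, cumulus and theca cells, of blood, immune and endothelial cells and of oviduct. Named per list were up to 4 members with the smallest p among those that passed in MII minus GV, or the 1 with the smallest p; per Zp gene, the 5 most correlated genes with a known name. Gdf9, Bmp15, Oosp1, Furin, Zp3r, Pecam1, Spcs2, Hsp90b1, Myh9, Myo5b, Vamp3, Cyp11a1, Nr5a2, Tnfaip6 and Cd81 were named after their values were seen. So were Dazl, Lhx8, Cuzd1, Gp2, Oit3, Tecta, Tectb, Umod, Ovgp1, Acr, Zpbp and Zpbp2. The alternatives were pseudocount 1, 4 scalings, every probe set, the mean over probe sets, a filter that dropped the lowest 40% of genes, a variance trend, a replicate block and each array left out.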

Additional observations from a re-analysis of the deposited data

How the results depend on the processing

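For the 3 Zp genes, the fall in MII against GV passed in all 19 alternative fits, with log2 values from -2.04 to -1.52 for Zp1, -2.50 to -1.85 for Zp2 and -2.51 to -1.85 for Zp3. The fall from MI to MII of Zp1 was -1.47 with pseudocount 1 (limma adjusted p = 0.0752) and -1.34 on arrays centred on hybridisation controls (limma adjusted p = 0.0586), where Zp2 had -1.80 (limma adjusted p = 0.0532). With each array left out in turn it ranged from -1.68 to -1.34 for Zp1 and from -2.14 to -1.49 for Zp2, and both calls were lost without MI 2. That of Zp3 held in all 19 fits. MI minus GV passed in none, and no Zp gene changed sign in any comparison. The within-array change of Zp2 minus Zp3 ranged from -0.22 to 0.041 with each array left out, above 0 without MII 2 (0.041) and MII 3 (0.0039), and passed in no setting. Rab11a in MII minus GV was 0.68 with the mean of its probe sets, which differ in sign. The cause of the other changes was not tested.

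The correlation of deviations from the stage means was 0.00076 to 0.226 for same-numbered arrays (median 0.095), and over 0.1 for 3 of 9 pairs. For different-numbered arrays it was -0.25 to 0.109 (median -0.0412), and over 0.1 for 1 of 18 pairs. Deviations of the 3 arrays of a stage cancel out, so positive values for same numbers make those for different numbers more negative. The ranges are thus not independent of each other, and same-numbered arrays were alike only weakly. The main fit did not take the numbers as pairing, and a replicate block was an alternative. With the replicate block, the adjusted p of MII minus GV was 0.0131 for Zp1, 0.0105 for Zp2 and 0.0103 for Zp3, and all Zp calls held. The number of genes that rose in MII against MI was 462, and 185 with pseudocount 1, 827 after quantile normalization, 782 at the same 95th percentile, 202 centred on hybridisation controls and 707 over every probe set; that of genes that fell was 1233, and 709 centred on hybridisation controls. Against GV, 993 rose in MII, and 626, 557 and 1690 with pseudocount 1, hybridisation controls and every probe set. With 1 array left out, 187 (without MII 3) to 438 rose and 640 (without MI 2) to 1197 fell in MII against MI, and 617 (without GV 3 or MII 3) to 1131 rose in MII against GV. Whether bright signal was compressed was not tested, and 3 arrays per stage limit what can be seen.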
